A study of Homo sapiens with 8 samples.

Results

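Nonsense-mediated mRNA decay (NMD) removes mRNAs on which translation ends early, and 9 of its core factors were followed here in Huh7 cells, an established human hepatocellular carcinoma line. The factors were chosen by symbol as UPF1, UPF2, UPF3A, UPF3B, SMG1, SMG5, SMG6, SMG8 and SMG9, and all 9 were found among the 17076 genes of the tables. Poly(A)-selected RNA was sequenced in 4 groups of 2 libraries. The siControl cells received a scrambled siRNA and the siUPF1 cells an siRNA against UPF1. The MYC cells received a vector with the MYC tag alone and the MYC-UPF1 cells a vector for MYC-tagged UPF1. All cells were Huh7 cells transfected with a lipid reagent. No selection of transfected cells is described, so a library may mix cells that took up more and less siRNA or plasmid. No time after transfection is given in the labels.

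UPF1 is an RNA helicase that binds mRNA and is recruited to ribosomes that stop prematurely. UPF2 and the paralogs UPF3A and UPF3B connect UPF1 to the exon junction complex, the protein mark that splicing leaves on mRNA. SMG1 is the kinase that phosphorylates UPF1, and SMG8 with SMG9 forms the complex that restrains SMG1. Phosphorylated UPF1 then engages SMG6, an endonuclease that cuts the mRNA near the stop codon, and SMG5, an adaptor for deadenylation and decapping. Several mRNAs of NMD factors are themselves known NMD substrates in other cell lines, so a loss of NMD activity can be accompanied by higher levels of these mRNAs, an arrangement described as feedback. Upstream open reading frames and long 3′UTRs are the features usually named for them.

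The study lists a pair of siRNAs against UPF1, shown because the depletion comparison starts from them. Their sense strands were as follows.
UPF1 CDS: CCAAGAUGCAGUUCCGCUCCAUU
UPF1 3′UTR: GCUUAGUCCAUCAGCAUCUUAUUCU
The first matched GRCh37 (hg19) at chr19:18967738-18967760 on the plus strand, in exon 14 of the 24 exons of UPF1, from position 1877 of the coding sequence. The reference around it reads as follows, with the 23 bases of the siRNA site in capitals and 20 bases of exon 14 on either side.
UPF1 exon 14: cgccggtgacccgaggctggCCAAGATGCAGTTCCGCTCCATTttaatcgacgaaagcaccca
The second, of 25 bases, matched chr19:18977357-18977381 in exon 24, in the 3′UTR, from base 31 after the stop codon. Each sequence had an exact match in the GENCODE transcripts of 1 gene, UPF1. Which of them was used for the sequenced cells is not given in the sources used here. No library received both siRNA and plasmid.

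On GRCh37 UPF1 lies at chr19:18942768-18979039 on the plus strand. The factors that bind it lie at chr10:11962021-12085169 (UPF2, minus strand), chr13:115047076-115071292 (UPF3A, plus strand) and chrX:118967985-118986961 (UPF3B, minus strand). The kinase gene SMG1 lies at chr16:18816182-18937730 on the minus strand, and its partners lie at chr17:57286761-57292600 (SMG8, plus strand) and chr19:44232135-44259114 (SMG9, minus strand). SMG5 lies at chr1:156219015-156252616 and SMG6 at chr17:1963133-2207079, both on the minus strand. On the opposite strand within SMG6 lie 2 other genes of the tables, HIC1 and SRR. The library kit keeps strand, but whether strand was used in the quantification is not given in the sources used here. For the other 8 factors no overlapping gene of the tables was found.

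The reference transcripts of the 9 factors were read for the features named for NMD substrates. SMG9 carried the longest 3′UTR relative to its coding sequence, with 3613 nt against 1563 nt. SMG1, a very large kinase, had the longest transcript, with 16062 nt and a 3′UTR of 4709 nt. SMG8 stood at the other end, with a 3′UTR of 228 nt. A 3′UTR above the median of 1285 nt over coding genes was found in 5 of 9 factors. A complete upstream open reading frame, starting at an AUG and ending within the 5′UTR, was found in 2 of 9, SMG5 and SMG9, beside 34.7% of 13136 coding genes. None of the 9 had an exon junction more than 50 nt after its stop codon, a feature of 0.518% of coding genes. A transcript annotated as subject to NMD was listed for 4 of 9 (UPF1, SMG1, SMG8 and SMG9), beside 38.6% of genes in the tables. These features therefore set the 9 reference transcripts little apart from other genes, and they describe the annotation, not the transcripts present in Huh7 cells.

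The values are FPKM, fragment numbers divided by exon length and by the size of the library, and so are scaled to length and can be compared between genes. Summed FPKM ranged from 403902 to 455592 between libraries, and the number of reads behind each value is unknown. Genes that mark hepatocytes (8 of 8 listed) summed to 20200 to 23637 FPKM per library. Markers of leukocytes, endothelium and fibroblasts summed to 3.84 to 4.89 FPKM, with 3 of 6 listed. Across genes, MYC replicate 1 correlated more closely with MYC-UPF1 replicate 2 (r = 0.998) than with MYC replicate 2 (r = 0.996). In the depletion set, siUPF1 replicate 1 correlated less closely with siUPF1 replicate 2 (r = 0.9942) than with siControl replicates 1 (r = 0.9945) and 2 (r = 0.9953). The libraries of neither comparison were thus fully ordered by group. Nothing says whether the 2 libraries of a group came from separate cultures, so p-values measure the spread between these libraries, which may be technical. In such bulk samples, fewer cells with an mRNA and less of it per cell cannot be told apart.

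In siControl cells the 9 factors spanned a wide range of levels. SMG5 was the highest at 71.2 FPKM, followed by UPF1 at 45.9, UPF3A at 19.9, SMG8 at 11.4, UPF2 at 10.7, SMG1 at 10.4, UPF3B at 8.10, SMG9 at 5.41 and SMG6 at 3.14. No neighbours in this order overlapped between libraries, although SMG8, UPF2 and SMG1 lay close together. The adaptor SMG5 thus stood far above the endonuclease SMG6, at 20.8 and 24.8 times its level in the siControl libraries, and UPF3A stood at 2.31 and 2.59 times the level of UPF3B. In siUPF1 cells the order changed at UPF1, which fell to the third place, its libraries overlapping those of UPF3A, and at UPF2, which passed SMG8. In MYC cells SMG1 and UPF2 overlapped, and SMG8 stood above both. The levels of SMG1 and UPF3A are uncertain, because both have near-identical copies elsewhere in the genome and 1 FPKM value per gene does not show how shared reads were split.

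**Figure D1:**
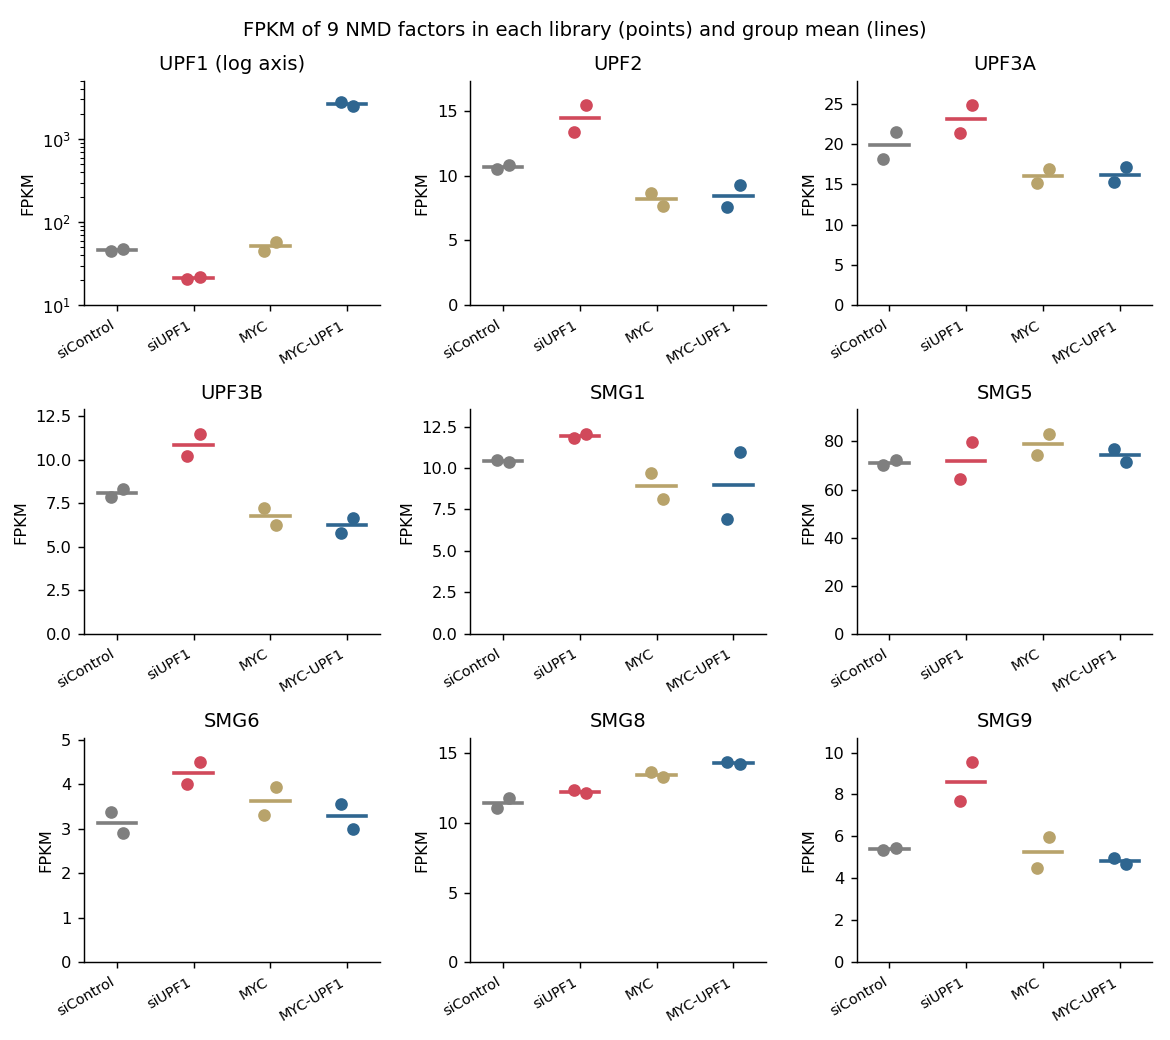
FPKM of each of the 9 NMD factors in the 8 libraries, with 1 point per library and a line at the mean of each group. The UPF1 panel has a log axis and all other panels start at 0. UPF1 reached 2835 and 2484 FPKM in MYC-UPF1 cells, while SMG9, UPF2, UPF3B, SMG6 and SMG1 were highest in the siUPF1 libraries.

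UPF1, the targeted gene, was examined first. It stood at 44.5 and 47.4 FPKM in siControl and at 20.7 and 21.9 FPKM in siUPF1. Both siUPF1 libraries lay below both siControl libraries, and the mean went from 45.9 ± 2.06 to 21.3 ± 0.839 FPKM (SD, n = 2), which is 46.3% of control. The log2 fold change in FPKM + 1 was -1.07 (SE 0.0928, 95% interval -1.29 to -0.85, limma adjusted p = 0.0308), the fifth lowest of 13535 genes tested. At this adjusted threshold 0.0369% of genes passed, so UPF1 was 1 of 5 genes. Its adjusted p was not below 0.05 in 4 of the other settings tried, where it ranged up to 0.193.

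UPF1 in MYC-UPF1 cells rose to 2835 and 2484 FPKM, from 45.1 and 57.4 FPKM in MYC cells. The groups were far apart, with means of 2659 ± 248 and 51.3 ± 8.65 FPKM (SD, n = 2), a ratio of 51.9. The log2 fold change was 5.68 (SE 0.110, 95% interval 5.43 to 5.92, limma adjusted p = 8.91e-09), and UPF1 was the single gene, 0.00755% of 13251, that passed the adjusted threshold. With 1 FPKM value per gene, UPF1 mRNA from the plasmid and from the chromosome cannot be told apart, so these data hold no reading of endogenous UPF1 under overexpression.

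Depletion of UPF1 was next compared across its partners. SMG9, UPF2, UPF3B and SMG6 rose at an unadjusted p under 0.05, and UPF3A, SMG1, SMG5 and SMG8 did not pass. None of the 8 fell. Of all genes tested, 16.0% passed in the higher direction and 5.51% in the lower one, against 4 and 0 of these 8 factors. With quantile normalization, under which all genes split into 1417 higher and 1408 lower calls in place of 2162 and 746, the same 4 of 8 factors passed. With the trend in GC content and length removed, where the split was 1433 to 1466, 3 of 8 passed and SMG6 did not. After adjustment over all 13535 genes none of the 8 passed. This count changed with 1 siUPF1 library left out, as did the number of all genes passing. Without siUPF1 replicate 1 the log2 fold changes were 0.72 for SMG9, 0.50 for UPF2, 0.46 for UPF3B, 0.41 for SMG6 and 0.32 for UPF3A. Without siUPF1 replicate 2 they were 0.44, 0.30, 0.30, 0.28 and 0.11 in the same order. SMG1, SMG8 and SMG5 were at 0.20, 0.08 and 0.16 without replicate 1 and at 0.17, 0.11 and -0.15 without replicate 2. In these fits the lone siUPF1 library is assumed to vary like the controls. Among genes with a mean of at least 5 FPKM, SMG9 passed after adjustment (limma adjusted p = 0.0293). It was 1 of 316 passing genes among the 7898 tested there. Both siUPF1 libraries lay above both siControl libraries for 6 of the 8 factors and below them for none, beside 37.5% and 18.5% of all genes. The median log2 fold change of the 8 was 0.28, beside 0.06 over all genes tested, and 7 of 8 lay above that median.

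SMG9, a partner of SMG8 in the complex that restrains the SMG1 kinase, changed most among the 8 where the GC and length trend was kept. It stood at 5.36 and 5.46 FPKM in siControl and at 7.68 and 9.55 FPKM in siUPF1. Both depleted libraries lay above both controls, and replicate 2 was the higher of them. The means were 5.41 ± 0.070 and 8.61 ± 1.32 FPKM (SD, n = 2), a rise of 59.1%. The log2 fold change was 0.58 (SE 0.116, 95% interval 0.30 to 0.85, limma unadjusted p = 0.00167, adjusted p = 0.0835), and 98.8% of genes had a lower one.

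SMG8, the other part of that complex, moved little. It stood at 11.1 and 11.7 FPKM in siControl and at 12.3 and 12.1 FPKM in siUPF1. The groups did not overlap, but the log2 fold change was 0.09 with a 95% interval of -0.12 to 0.31 (limma unadjusted p = 0.336). The ratio of SMG9 to SMG8 was 0.484 and 0.465 in siControl and 0.622 and 0.788 in siUPF1, higher in both depleted libraries. In the MYC libraries it was 0.330 and 0.452, so it also varied within a control group, and it was not tested. The kinase SMG1 itself stood at 10.5 and 10.4 FPKM in siControl and at 11.8 and 12.1 FPKM in siUPF1. Its groups did not overlap either, with a log2 fold change of 0.18 and a 95% interval of -0.03 to 0.39 (limma unadjusted p = 0.0774).

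UPF2, which binds UPF1 directly, stood at 10.5 and 10.8 FPKM in siControl and at 13.4 and 15.4 FPKM in siUPF1. Both depleted libraries were higher, and the mean rose by 35.2%, from 10.7 ± 0.233 to 14.4 ± 1.46 FPKM (SD, n = 2). The log2 fold change was 0.40 (SE 0.102, 95% interval 0.16 to 0.64, limma unadjusted p = 0.00600, adjusted p = 0.117). The ratio of UPF1 to UPF2 was 4.24 and 4.38 in siControl and 1.55 and 1.42 in siUPF1, a change that includes the fall of UPF1, the siRNA target.

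The paralogs UPF3A and UPF3B, which link UPF2 to the exon junction complex, did not give the same call. UPF3B, encoded on the X chromosome, stood at 7.87 and 8.33 FPKM in siControl and at 10.2 and 11.5 FPKM in siUPF1, with no overlap. Its log2 fold change was 0.38 (SE 0.0991, 95% interval 0.15 to 0.62, limma unadjusted p = 0.00634, adjusted p = 0.118), and its mean rose by 34.2%. UPF3A, a weaker activator of NMD that can also counteract it, stood at 18.1 and 21.6 FPKM in siControl and at 21.4 and 24.9 FPKM in siUPF1, so that the groups overlapped. Its log2 fold change was 0.21, with a 95% interval of -0.08 to 0.50 (limma unadjusted p = 0.126). Whether the paralogs differed in response was not tested, and their intervals overlap. The ratio of UPF3A to UPF3B was 2.09 and 2.16 in siUPF1, below both siControl libraries.

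SMG6, the endonuclease, was the lowest of the 9 factors. It stood at 3.38 and 2.90 FPKM in siControl and at 4.01 and 4.50 FPKM in siUPF1, without overlap, a rise of 35.7% in the mean. The log2 fold change was 0.35 (SE 0.107, 95% interval 0.09 to 0.60, limma unadjusted p = 0.0142, adjusted p = 0.149). SMG5, the adaptor of the other decay route, stood at 70.2 and 72.1 FPKM in siControl and at 64.2 and 79.8 FPKM in siUPF1. The depleted libraries lay on either side of the controls, and the log2 fold change was 0.01 with a 95% interval of -0.28 to 0.30 (limma unadjusted p = 0.944). The ratio of SMG5 to SMG6 accordingly went from 20.8 and 24.8 to 16.0 and 17.7.

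In MYC-UPF1 cells none of the 8 partners passed the unadjusted threshold, in either direction. This share stands beside 0.619% of genes passing in the higher and 0.807% in the lower direction, so almost no gene of the transcriptome passed in this comparison. Both MYC-UPF1 libraries lay above both MYC libraries for 1 of the 8 factors, SMG8, and below them for none, beside 8.88% and 11.8% of all genes. SMG8 stood at 13.7 and 13.3 FPKM in MYC and at 14.4 and 14.2 FPKM in MYC-UPF1, with a log2 fold change of 0.08 and a 95% interval of -0.14 to 0.31. The log2 fold changes of the 8 ran from -0.11 for SMG6 to 0.08 for SMG8, with a median of -0.05.

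The factors that rose on depletion stood as follows under overexpression. SMG9 was at 4.50 and 5.99 FPKM in MYC and at 4.97 and 4.67 FPKM in MYC-UPF1, with a log2 fold change of -0.09 and a 95% interval of -0.41 to 0.23. UPF2 was at 8.67 and 7.66 FPKM in MYC and at 7.61 and 9.26 FPKM in MYC-UPF1, with a log2 fold change of 0.04 and a 95% interval of -0.25 to 0.33. Changes within these intervals, in either direction, are not excluded by these libraries.

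UPF3B was at 7.24 and 6.25 FPKM in MYC and at 5.81 and 6.66 FPKM in MYC-UPF1, with a log2 fold change of -0.10 and a 95% interval of -0.39 to 0.19. SMG6 was at 3.30 and 3.95 FPKM in MYC and at 3.57 and 3.01 FPKM in MYC-UPF1, with a log2 fold change of -0.11 and a 95% interval of -0.41 to 0.19. In each of these factors the libraries of both groups overlapped. SMG1, the kinase, was the most variable, at 9.72 and 8.11 FPKM in MYC and at 6.95 and 11.0 FPKM in MYC-UPF1, and its interval of -0.43 to 0.39 was the widest of the 8. UPF3A (0.02, interval -0.23 to 0.26) and SMG5 (-0.08, interval -0.28 to 0.12) had log2 fold changes near 0.

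Because the excess of UPF1 was so large, the ratios between factors changed mainly through UPF1. The ratio of UPF1 to UPF2 was 5.20 and 7.49 in MYC and 372 and 268 in MYC-UPF1, and that of UPF1 to SMG1 was 4.65 and 7.08 in MYC and 408 and 226 in MYC-UPF1. The FPKM summed over the 8 partners stayed between 136 and 145 in the MYC and MYC-UPF1 libraries. In siControl and siUPF1 the sums were 137 and 143, and 145 and 170.

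**Figure D2:**
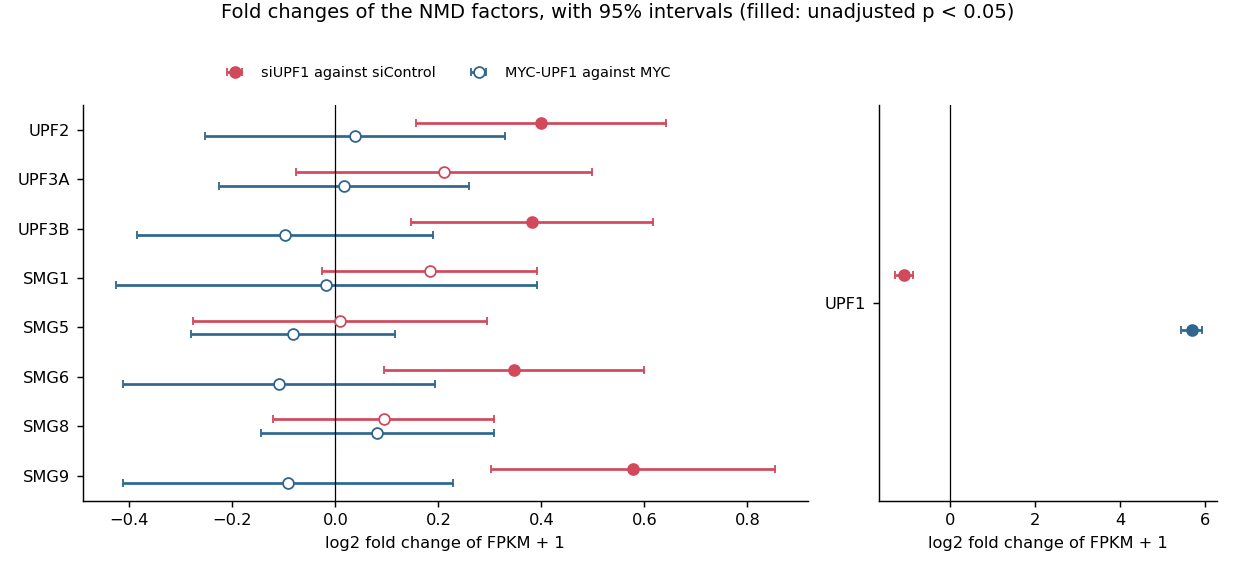
Log2 fold changes of FPKM + 1 with 95% intervals for siUPF1 against siControl and MYC-UPF1 against MYC, for 8 NMD factors at the left and UPF1, on a wider axis, at the right. Filled points passed an unadjusted limma p of 0.05, which SMG9, UPF2, UPF3B and SMG6 did on depletion and none of the 8 did on overexpression.

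Whether the effects of depletion and overexpression differed was tested in a single limma fit of all 8 libraries. The difference of the log2 fold changes, depletion minus overexpression, was 0.67 for SMG9 (95% interval 0.24 to 1.10, limma unadjusted p = 0.00621, adjusted p = 0.203). It was 0.48 for UPF3B (95% interval 0.13 to 0.83, limma unadjusted p = 0.0131, adjusted p = 0.225) and 0.46 for SMG6 (95% interval 0.07 to 0.84, limma unadjusted p = 0.0246, adjusted p = 0.264). These 3 of the 8 passed the unadjusted threshold in the higher direction, as did 11.8% of 13412 genes, while 3.40% passed in the lower direction and none of the 8 did. UPF2, with a difference of 0.36 and a 95% interval of -0.01 to 0.74 (limma unadjusted p = 0.0570, adjusted p = 0.344), did not pass, so its effects are not shown to differ in this fit. The differences of SMG1 (0.20), UPF3A (0.20), SMG5 (0.09) and SMG8 (0.01) did not pass either. SMG9 passed in 17 of 17 other settings and UPF3B in 14 of 17, and the exceptions were the fits without siControl replicate 1, MYC replicate 1 or MYC-UPF1 replicate 1 (limma unadjusted p = 0.0502 to 0.0519). SMG6 passed in 8 of 16, and in 4 of the 8 settings that kept every library. Of its losses, 4 were in fits without siControl replicate 2, siUPF1 replicate 2, MYC replicate 2 or MYC-UPF1 replicate 2. UPF2 passed in 5 of 17. With the trend in GC content and length removed, UPF2 passed, with a difference of 0.41 (limma unadjusted p = 0.0148). On that scale SMG6 was at 0.23 and did not pass (limma unadjusted p = 0.0796).

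The fold change of a gene on depletion moved with the GC content of its transcript. Over 12833 genes with a matched transcript the Spearman correlation was 0.553 on depletion, and -0.440 over 12590 genes on overexpression, given as descriptions across genes of the same libraries. The factors lie on both sides of the median GC content of 48.3%. When the matched genes were cut into 20 equal groups by GC content, the group that holds UPF2 (41.2%) and UPF3B (41.3%) had a median log2 fold change of -0.05 on depletion, and both factors lay far above it. The group with SMG6 (55.3%) and SMG9 (55.2%) had a median of 0.14, as did the group with SMG5 (57.6%). The group with UPF1 (60.4%) had a median of 0.22, while UPF1 itself was at -1.07.

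When the trend of each library with GC content and length was removed, UPF2 stood at a log2 fold change of 0.44 and UPF3B at 0.45, slightly above their values without the correction. SMG9 went to 0.41, below UPF2 and UPF3B, and still passed the unadjusted threshold (limma unadjusted p = 0.00206). SMG6 went to 0.18 and no longer passed (limma unadjusted p = 0.0908). SMG5 went to -0.18 (limma unadjusted p = 0.0594), and UPF1 to -1.31. The rises of UPF2, UPF3B and SMG9 were thus still present on this scale, and that of SMG6 was not called.

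The 4 rises were followed through 14 other settings, 4 of which left out 1 library. UPF2 and SMG9 passed the unadjusted threshold in 14 of 14, with log2 fold changes of 0.30 to 0.50 and 0.41 to 0.72. UPF3B passed in 13 of 14, and without siControl replicate 1 it did not (limma unadjusted p = 0.0680). SMG6 was tested in 13 of the 14 settings, because its mean FPKM was under the stricter minimum of 5, and passed in 11. Apart from the GC correction, it was lost without siControl replicate 2. UPF3A, which was not called, passed in 1 setting, without siUPF1 replicate 1, and SMG1, SMG5 and SMG8 passed in none.

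**Figure D3:**
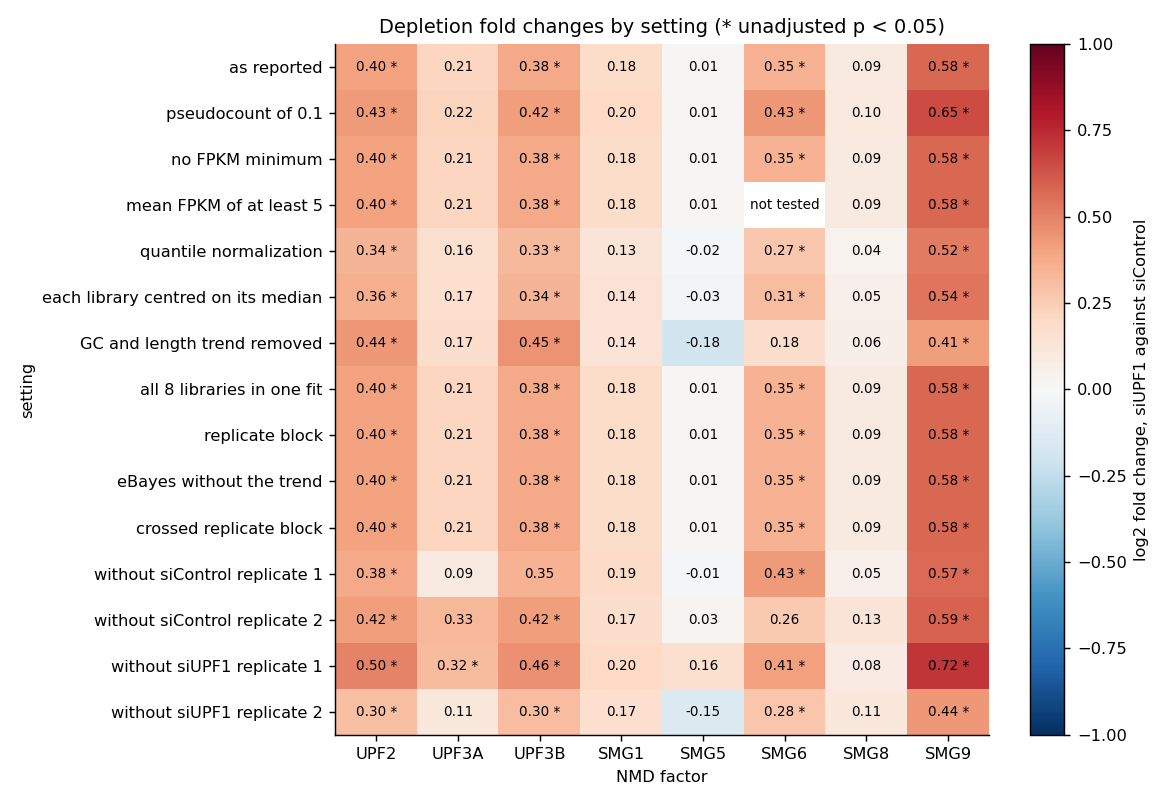
Log2 fold changes of the 8 partners of UPF1 on depletion under each setting, with colour and number giving the value and an asterisk marking an unadjusted limma p under 0.05. SMG9 and UPF2 carry an asterisk in every line, while SMG5 changes sign between settings.

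The near-identical copies of SMG1 and UPF3A were read beside their parent genes. Of 10 copies in the tables, named SMG1P1 to SMG1P7 and UPF3AP1 to UPF3AP3, 8 were tested on depletion and 7 on overexpression, and none passed the unadjusted threshold. Several of the SMG1 copies differed between the control libraries. SMG1P1 stood at 3.55 and 2.16 FPKM in siControl and at 3.28 and 3.60 FPKM in siUPF1, whereas SMG1 itself stood at 10.5 and 10.4 FPKM in the same controls.

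Other genes of the pathway were read beside the 8 partners. Of 11 further genes (NBAS, DHX34, RUVBL1, RUVBL2, GSPT1, ETF1, PNRC2, PABPC1, PTBP1, HNRNPL and NCBP1), 1 rose and 1 fell on depletion, with a median log2 fold change of 0.00. With 16.0% of all genes passing higher and 5.51% lower, these counts are near the background. PNRC2, which connects NMD with decapping, rose by 0.34 on the log2 scale (limma unadjusted p = 0.0219, adjusted p = 0.173), from 41.0 and 43.2 to 58.7 and 48.7 FPKM. PABPC1, the poly(A)-binding protein that counteracts NMD near the end of the mRNA, fell by 0.25 on the log2 scale (limma unadjusted p = 0.0421, adjusted p = 0.217), from a mean of 294 ± 17.6 to one of 247 ± 16.9 FPKM (SD). None of the 11 passed on overexpression, where 0.619% and 0.807% of all genes did.

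Known NMD substrates outside the core machinery were read as a comparison list, which was chosen with earlier results of these data known. Values with the GC and length trend removed were not read for this list. On depletion 6 of 12 rose and none fell at the unadjusted threshold, beside 16.0% and 5.51% of all genes. Their median log2 fold change was 0.22, beside 0.06 over all genes. The genes that rose were UPP1 (0.56), GADD45B (0.36), ATF4 (0.32), TBL2 (0.29), SNHG15 (0.27) and DDIT3 (0.26), the log2 fold change standing in parentheses. UPP1, a uridine phosphorylase, went from 4.14 and 5.02 to 7.03 and 7.44 FPKM, and ATF4, a stress transcription factor with upstream reading frames, from 203 and 213 to 249 and 273 FPKM. None of the 6 passed after adjustment. GADD45A (0.18), ZFAS1 (0.10), GAS5 (0.06), ATF3 (-0.01), SNHG1 (-0.15) and SNHG12 (-0.16) did not pass the unadjusted threshold. SNHG12, a snoRNA host gene, stood at 46.3 and 49.7 FPKM in siControl and at 41.1 and 44.4 FPKM in siUPF1, so that its depleted libraries lay below both controls. On overexpression the median log2 fold change of the list was 0.09, beside -0.01 over all genes tested, and 10 of 12 lay above that all-gene median. At the unadjusted threshold 3 of the 12 rose and none fell, beside 0.619% and 0.807% of all genes. These were the stress-responsive genes ATF3 (0.50), GADD45A (0.47) and GADD45B (0.45), with limma unadjusted p-values of 0.00414, 0.00171 and 0.0203 in this order. None of the 3 passed after adjustment, with a limma adjusted p of 1.00 for each.

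Finally, the genes with the pattern most like that of SMG9 over the 8 libraries were listed, from 13412 genes and by Pearson correlation of log2(FPKM + 1). They were CLIP3 (r = 0.994), SMOX (r = 0.993), BABAM1 (r = 0.992), RAB11FIP3 (r = 0.991) and GCHFR (r = 0.990), given as a description with no test. BABAM1 stood at 64.4 and 66.6 FPKM in siControl and at 75.7 and 84.4 FPKM in siUPF1. Each of the 5 was highest in siUPF1 replicate 2, as was SMG9, which follows from choosing them by likeness to SMG9. CLIP3 was low throughout, from 0.74 FPKM in MYC replicate 1 to 1.05 FPKM in siUPF1 replicate 2.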

How the data were processed

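RNA-seq was performed on 8 libraries of Huh7 cells, 2 in each of 4 groups taken from the labels. Per the submitters' processing notes and the study's methods, the authors trimmed reads with Trimmomatic 0.38, aligned them to hg19 with HISAT2 2.1.0, assembled transcripts with StringTie 1.3.4d against NCBI annotation and then deposited FPKM, with 1 value for each gene in each library. The notes also list mm10, with no role given. How the listed genes were chosen is not given in the sources used here, and no whole-read steps were found among low values.

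Groups were compared with limma 3.58.1 (R 4.3.3; lmFit, eBayes with trend) on log2(FPKM + 1). Genes averaging at least 0.5 FPKM over the libraries compared were tested, with Benjamini-Hochberg adjustment over all genes tested. The pseudocount makes fold changes of lowly expressed genes too small. With 2 libraries against 2, an exact two-sided permutation test cannot go below p = 0.333, so the p-values rest on variance shared across genes. A p of 0.05 was the threshold. The method was tested on simulated data. Named were the 9 factors, the copies SMG1P and UPF3AP, genes of both lists that passed in either comparison, and the 5 genes most like SMG9, with HIC1 and SRR added after their values were seen. The members and lists were chosen with earlier results of these data known, and 1 gene of the pathway list is not reported here.

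Transcripts came from GENCODE release 44 on GRCh37, with 15741 of 17076 genes matched (92.2%). Alternatives were a pseudocount of 0.1, no FPKM minimum or 5, quantile normalization, median centring, removal of the GC and length trend (loess, span 0.5), all 8 libraries in 1 fit, a replicate block, eBayes without the trend and each library left out. A crossed block was added after seeing the data. Deviations of same-numbered libraries from their group means correlated negatively across genes, weakly on depletion (r = -0.129) and more strongly on overexpression (r = -0.569). The numbers were therefore not taken as pairs, and whether same-numbered libraries shared a culture is not given in the sources used here.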

Additional observations from a re-analysis of the deposited data

How the results depend on the processing

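Depth is unknown, and 2 libraries a group limit every call. Among the 9 factors, 4 were higher and 1 lower on depletion at the unadjusted threshold, and 3 or 4 and 1 in other settings that kept every library. For the difference the counts were 3 and 1, and 2 to 4 and 1 in such settings. On overexpression they were 1 and 0 throughout. With a library left out the counts stayed within 1.5 times of those reported, a wide margin for counts this small. Equal counts can also hide a change in which factors passed. Calls of single partners of UPF1 lost or gained on depletion stand beside their results above. The replicate numbers were not taken as pairs, and neither replicate block changed a factor's unadjusted call on depletion. For the difference of effects SMG6 was lost with the replicate block (limma unadjusted p = 0.0578) and UPF2 passed with the crossed one (limma unadjusted p = 0.0200). UPF1 on depletion had an adjusted p of 0.0737 with the replicate block, 0.0616 with median centring, 0.0579 with quantile normalization and 0.193 with no FPKM minimum. All causes of the changes below were not tested.

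Over all genes on depletion, 5 passed the adjusted threshold. The count was 0 with the replicate block, median centring, quantile normalization or no FPKM minimum, 316 at a mean of at least 5 FPKM, 263 with the GC and length trend removed, 368 with all 8 libraries in 1 fit, 90 with the crossed block, and 121 to 4546 with a library left out, 4546 being without siUPF1 replicate 1. The unadjusted 2908 became 1862 at 5 FPKM and 1443 to 5901 with a library left out. Higher and lower calls numbered 2162 and 746, but 1417 and 1408 with quantile normalization, 1602 and 1271 with median centring and 1433 and 1466 with the trend removed.

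On overexpression, 1 gene passed after adjustment, 2 with a pseudocount of 0.1 or all 8 libraries in 1 fit, 20 with the replicate block, 32 with the crossed block and 5 to 63 with a library left out. The unadjusted 189 became 409 with no minimum, 49 at 5 FPKM, 424 with the trend removed, 1227 with the crossed block and 216 to 777 with a library left out. For the difference of effects, 3 genes passed after adjustment, 1 with no minimum, 11 at 5 FPKM, 121 with the trend removed, 8 with the replicate block, 18 with the crossed block and 1 to 416 with a library left out. The unadjusted 2041 became 1282 at 5 FPKM, 3198 with the crossed block and 1065 to 3376 with a library left out, and its split of 1585 higher and 456 lower became 1018 and 1030 with the trend removed.

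Log2 values that changed sign belonged to factors that were not called. On depletion SMG5 was at -0.020 with quantile normalization, -0.030 with median centring, -0.18 with the trend removed and -0.15 to 0.16 with a library left out. On overexpression SMG1 was at 0.017 with the trend removed, and with a library left out the ranges were -0.31 to 0.28 for SMG1, -0.059 to 0.091 for UPF3A, -0.089 to 0.16 for UPF2 and -0.26 to 0.081 for SMG9. For the difference, SMG8 was at -0.061 with quantile normalization, -0.036 with median centring and -0.021 with the trend removed, and SMG5 at -0.16 with the trend removed. With a library left out these ran from -0.027 to 0.051 and from -0.063 to 0.25, and SMG1 from -0.095 to 0.50.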
